A study of Mus musculus with 12 samples.

Results

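The 4 ligands of the interleukin-6 family (Il6, Lif, Osm and Clcf1), 3 receptor chains (Il6ra, Il6st and Osmr) and the transcription factor Stat3 were followed across 12 RNA-seq libraries of mouse resident peritoneal macrophages. These 8 genes were taken by symbol from a table of 54532 genes, and all 8 had enough counts to be tested among 14506 genes. The cells came from C57BL/6 mice, with no other genotype or age in the labels, and every culture spent 24 h in basic DMEM. The 4 groups of 3 libraries were MOPS-buffered medium, HEPES-buffered medium, MOPS with LPS and HEPES with LPS. LPS, the bacterial cell-wall lipid sensed by Toll-like receptor 4, was given at 10 ng/ml for 2 h. The design text names pH 6.8 and 7.4 and then MOPS and HEPES, so the pairing of pH 6.8 with MOPS rests on word order, and buffer and pH change together. The groups are therefore called MOPS and HEPES, and each contrast between them is of the medium as a whole. The labels do not say whether libraries of a group came from separate animals or cultures, so p-values speak only of the scatter among these 12 libraries.

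Interleukin-6, leukaemia inhibitory factor (LIF), oncostatin M (OSM) and cardiotrophin-like cytokine factor 1 (CLCF1) are secreted proteins that all signal through gp130, the receptor chain encoded by Il6st. The partner of gp130 differs between ligands. Interleukin-6 binds the interleukin-6 receptor encoded by Il6ra, LIF uses the LIF receptor, OSM in the mouse acts chiefly through the OSM receptor encoded by Osmr, and CLCF1 works with the ciliary neurotrophic factor receptor and its co-chains. Engaged receptors activate JAK kinases and STAT3, and STAT3 induces Socs3, whose product shuts the receptor off. Macrophages given LPS are a classical source of interleukin-6, and gp130 signalling shapes the acute phase response and the late course of peritoneal inflammation.

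The promoters of both most strongly induced ligands, Il6 and Lif, are shown. RefSeq promoter sequence was available for Il6, Lif, Il6ra, Il6st, Osmr and Stat3, which is 6 of the 8 genes, and Osm and Clcf1 had no entry. Each printed sequence is the 250 bases before the RefSeq start on GRCm38.p6, 5′ to 3′ on the gene's strand. Capitals mark matches to an NF-kB consensus, the AP-1 motif TGANTCA or the C/EBP motif TTGCNNAA. The Il6 window is chr5:30012864-30013113 on the plus strand, and the Lif window is chr11:4257318-4257567 on the plus strand.
Il6 promoter: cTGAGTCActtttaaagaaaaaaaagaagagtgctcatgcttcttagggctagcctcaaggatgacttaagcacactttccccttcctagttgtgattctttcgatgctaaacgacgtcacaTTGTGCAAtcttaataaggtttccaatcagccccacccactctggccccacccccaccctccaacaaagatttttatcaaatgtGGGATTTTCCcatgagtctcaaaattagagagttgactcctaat
Lif promoter: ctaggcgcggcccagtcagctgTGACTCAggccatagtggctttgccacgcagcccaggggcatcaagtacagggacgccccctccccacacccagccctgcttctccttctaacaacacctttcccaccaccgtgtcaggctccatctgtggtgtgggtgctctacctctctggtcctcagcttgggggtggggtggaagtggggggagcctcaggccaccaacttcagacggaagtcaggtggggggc
In the Il6 window the NF-kB match began 44 bases before the start, the C/EBP match 128 bases and the AP-1 match 249 bases before it. The Lif window held the AP-1 match alone, beginning 228 bases before the start. Both strands were searched, also for the CRE motif TGACGTCA, the STAT motif TTCNNNGAA and the TATA motif TATAAA, and neither window held these letters. The windows of Il6ra, Il6st, Osmr and Stat3 held none of the 6 motifs. Among 32851 windows of the same length, 3.9% held the NF-kB match, 6.75% the AP-1, 9.56% the C/EBP, 1.55% the CRE, 7.02% the STAT and 12.4% the TATA match. The 3 matches in the Il6 window did not overlap each other, and a match is a description of the letters, not a site of binding.

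The 3′ untranslated regions of the 4 ligands are shown as short windows because the repeated ATTTA pentamer is the core of AU-rich elements, which mark cytokine mRNAs for decay. The windows are the 30 bases with most pentamers in the longest coding transcript of GENCODE vM21, and capitals mark ATTTA.
Il6: tttaattatttttaATTTAttgataATTTA
Lif: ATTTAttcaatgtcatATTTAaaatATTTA
Osm: aatccgttttatATTTAtaaggcctATTTA
Clcf1: taatATTTATTTAtttggagatgttATTTA
The Il6 region held 6 pentamers in 430 bases, or 14 per kb, a density reached by 0.317% of 19218 genes with such a region of 100 bases or more. Osm held 6 in 1020 bases (5.88 per kb, reached by 5.25% of genes) and Clcf1 held 4 in 925 bases (4.32 per kb, reached by 11.1%). Lif, with 7 in 3183 bases or 2.2 per kb, was nearer the median of 1.3 per kb. The longer nonamer TTATTTATT was present in Lif and Clcf1 (2 copies each), and in 6.59% of 21669 genes. Among the receptor and signalling genes, the density was 0.543 per kb in Il6ra, 1.05 in Stat3, 1.59 in Il6st and 2.23 in Osmr. The ligands thus held the 3 highest densities of the 8 genes, with Lif just below Osmr.

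Library totals ran from 20114613 to 24734853 counts, and the common biological coefficient of variation was 4.62%. Defining macrophage markers were present in every group, with all 8 listed markers detected and a summed level of 16700 to 16900 CPM (counts per 1000000) in MOPS, 25900 to 27300 in HEPES, 17300 to 19600 in MOPS with LPS and 27200 to 28900 in HEPES with LPS, mostly from Lyz2. The 6 B cell markers summed to 189 to 198 CPM in MOPS, 80.5 to 145 in HEPES, 111 to 124 in MOPS with LPS and 23.8 to 27.4 in HEPES with LPS, so they moved with medium and with LPS. The 11 mesothelial, stromal and endothelial markers summed to 9.33 to 15 CPM and the 7 T and NK cell markers to 0.11 to 1.19 CPM in any library. The 5 dendritic cell markers summed to 42.8 to 70.9 CPM and the 9 granulocyte and mast cell markers to 26.4 to 44.6 CPM, with Ly6g and Retnlg at 0 in every group. The part of these cells in the results was not tested. In bulk RNA, fewer cells of a type and less RNA per cell cannot be told apart.

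Levels are given as CPM after scaling libraries by trimmed means (TMM), with mean ± SD over n = 3 libraries. Changes are log2 ± SE from edgeR's quasi-likelihood test, with Benjamini-Hochberg adjusted p over all 14506 genes and a threshold of 0.05. Scaling by library totals alone would shift the median LPS change of all genes from -0.035 to -0.547 in MOPS and from -0.084 to -0.669 in HEPES, so small LPS changes are relative to that choice.

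LPS induced all 4 ligands in both media, by far the most for Lif and Il6. In MOPS, 6 of the 8 genes changed (4 higher, 2 lower), against 69.0% of all genes tested (34.1% higher, 34.9% lower). In HEPES, 7 of 8 changed (5 higher, 2 lower), against 76.9% of all genes (35.6% higher, 41.2% lower). The ligands rose and the receptor Il6ra and its partner Il6st fell in both media, although the Il6st fall in HEPES was lost in 9 of 18 alternative settings. Under DESeq2 and in fits of the HEPES groups alone, the HEPES counts became 6 higher and 1 lower, with Stat3 gained and Il6st lost. The remaining call was Osmr, which rose in HEPES. The median LPS change of the 8 genes was 1.42 in MOPS and 4.04 in HEPES on the log2 scale. These medians lie midway between Clcf1 and Osmr, at 2.47 and 0.38 in MOPS and 4.12 and 3.96 in HEPES. They thus follow those genes, and Osmr had few counts. The LPS changes of Il6, Lif, Osm and Il6ra did not differ between media beyond the threshold.

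**Figure D1:**
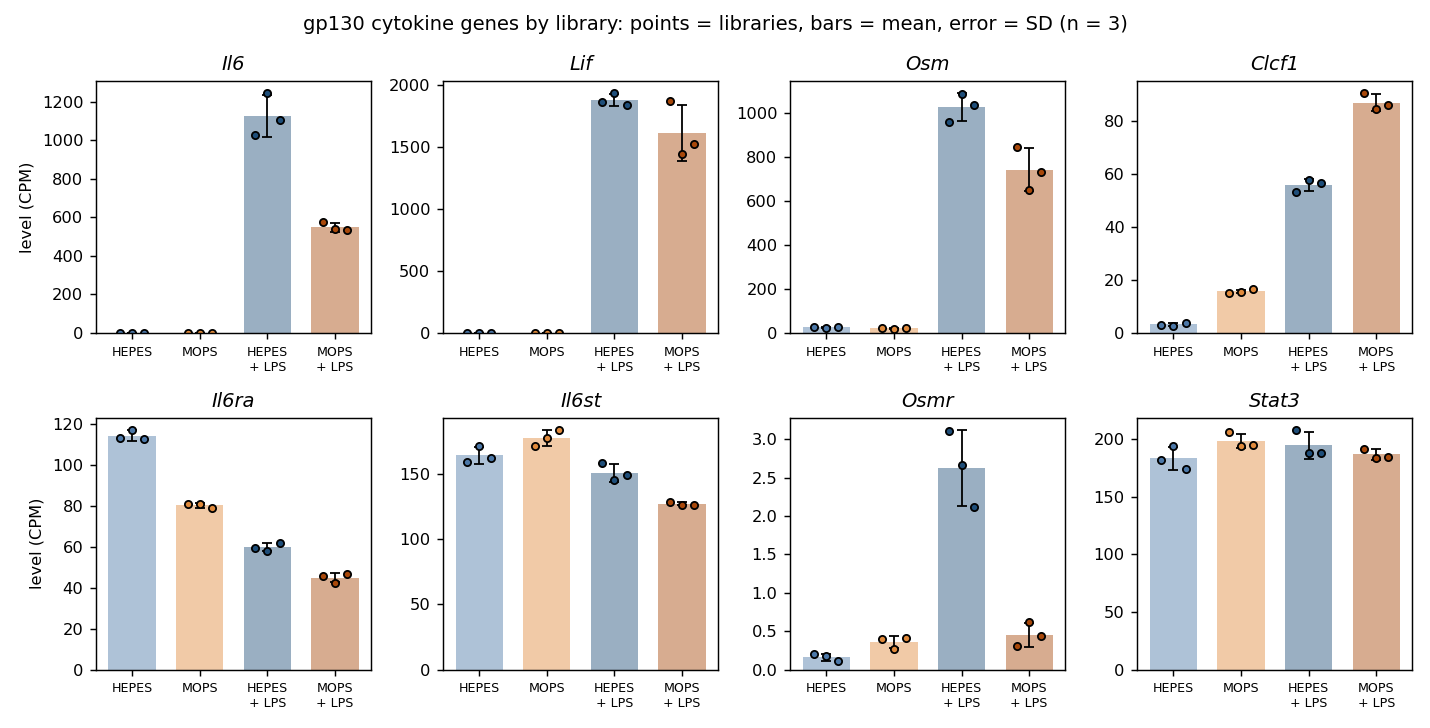
Level of each of the 8 genes in CPM (vertical axes, scaled separately) in the 4 groups; points are libraries, bars group means and error bars SD (n = 3). Il6 was near 0 without LPS and reached 533 to 575 CPM in MOPS with LPS and 1028 to 1245 CPM in HEPES with LPS, while Clcf1 was higher in MOPS with and without LPS.

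Il6 (ENSMUSG00000025746, mm10 chromosome 5, 30013114 to 30019981, plus strand) was close to silent without LPS. Its libraries held 0, 5 and 5 counts in MOPS and 4, 30 and 9 counts in HEPES. With LPS the levels were 575, 538 and 533 CPM in MOPS and 1028, 1245 and 1107 CPM in HEPES. Every HEPES library given LPS lay above every MOPS library given LPS, and the untreated groups overlapped. The mean was thus 549 ± 23.2 CPM against 1127 ± 109.5 CPM, 2.05-fold lower in MOPS (log2 -1.04 ± 0.11, edgeR adjusted p 5.45e-05). DESeq2 on all 12 libraries did not call this difference (adjusted p 0.155), while DESeq2 on the LPS-treated libraries alone did (adjusted p 9.64e-64), and the authors' deposited table gives log2 -1.03 with an adjusted p of 1.02e-63.

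The LPS change of Il6 was 12.04 ± 1.1 in MOPS and 11.11 ± 0.53 in HEPES on the log2 scale (edgeR adjusted p 2.37e-10 and 6.76e-11), the second and the ninth largest rises of all genes. These changes divide by 10 counts in all of MOPS and 43 in all of HEPES, 30 of which were in HEPES replicate 5. Without that library the change in HEPES was 12.23. The difference between the changes did not pass the test (0.93 ± 1.2, adjusted p 0.553), and without HEPES replicate 5 it was -0.19 (adjusted p 0.921). Untreated, the level was 0.123 ± 0.109 CPM in MOPS and 0.505 ± 0.481 CPM in HEPES, a difference that missed the threshold (-1.96 ± 1.2, adjusted p 0.158; -0.84 without HEPES replicate 5), although DESeq2 called it (-2.00, adjusted p 0.0293).

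Lif (ENSMUSG00000034394, chromosome 11, 4257557 to 4272514, plus strand) encodes LIF, a gp130 cytokine known for keeping embryonic stem cells undifferentiated and for roles in implantation and inflammation. Its libraries held 12, 6 and 3 counts in MOPS and 7, 4 and 3 in HEPES. With LPS the levels were 1874, 1446 and 1522 CPM in MOPS and 1867, 1937 and 1843 CPM in HEPES. The LPS-treated groups overlapped through MOPS replicate 7, which lay with the HEPES libraries. The means were 1614 ± 228 and 1882 ± 49.1 CPM, and the difference did not pass the test (-0.22 ± 0.091, edgeR adjusted p 0.0675). Without MOPS with LPS replicate 7 it did (-0.39, adjusted p 3.55e-08).

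Lif showed the largest LPS rise of all 14506 genes in MOPS (12.55 ± 0.60, edgeR adjusted p 2.81e-12) and the second largest in HEPES (13.44 ± 0.73, adjusted p 1.41e-12). Both sizes rest on few untreated counts, 21 in MOPS and 14 in HEPES. The difference between them did not pass the test (-0.89 ± 0.95, adjusted p 0.499), nor did the untreated levels of 0.266 ± 0.185 and 0.162 ± 0.0658 CPM differ beyond it (0.66 ± 0.95, adjusted p 0.589).

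Osm (ENSMUSG00000058755, chromosome 11, 4236420 to 4241026, plus strand) encodes OSM, made chiefly by myeloid and T cells. It was expressed before LPS, at 22.7, 20.4 and 21.8 CPM in MOPS and 25.6, 24.3 and 26.5 CPM in HEPES. With LPS the levels were 846, 651 and 733 CPM in MOPS and 959, 1087 and 1035 CPM in HEPES. HEPES libraries lay above MOPS libraries in both states without overlap, by a small margin when untreated. With LPS the mean was 743 ± 98.0 CPM in MOPS and 1027 ± 64.6 CPM in HEPES, 1.38-fold lower in MOPS (-0.47 ± 0.085, edgeR adjusted p 0.00094). Untreated, the difference missed the threshold (-0.24 ± 0.12, adjusted p 0.126), but it passed in a fit of the untreated libraries alone (adjusted p 0.00344) and in the authors' deposited table (adjusted p 0.0272).

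Osm rose 34.4-fold with LPS in MOPS (5.10 ± 0.10, edgeR adjusted p 1.01e-11) and 40.4-fold in HEPES (5.33 ± 0.10, adjusted p 4.06e-12). These rises did not differ beyond the error (-0.23 ± 0.14, adjusted p 0.246), except without MOPS with LPS replicate 7 (-0.38, adjusted p 0.00104). Osm and Lif are neighbours on chromosome 11, on the same strand with 16530 bases between them and no other gene of the table in the gap. The 2 nearest tested genes on the other side of Osm also rose with LPS, Castor1 by 1.47 in MOPS and 0.98 in HEPES on the log2 scale, and Tbc1d10a by 1.27 and 1.26.

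Clcf1 (ENSMUSG00000040663, chromosome 19, 4214238 to 4223490, plus strand), whose product is also known as a B cell stimulating factor, was the ligand with the opposite order of media. Untreated it stood at 15.3, 15.5 and 16.5 CPM in MOPS and 3.07, 2.83 and 3.76 CPM in HEPES. With LPS it stood at 90.6, 84.5 and 85.9 CPM in MOPS and 53.4, 57.6 and 56.6 CPM in HEPES. All 4 groups were separate, in the order MOPS with LPS, HEPES with LPS, MOPS, HEPES. Clcf1 was 4.89-fold higher in MOPS when untreated (2.29 ± 0.10, edgeR adjusted p 1.35e-19), the 79th highest of all genes, and 1.56-fold higher with LPS (0.64 ± 0.054, adjusted p 1.35e-11).

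LPS raised Clcf1 5.53-fold in MOPS (2.47 ± 0.061, edgeR adjusted p 6.71e-26) and 17.4-fold in HEPES (4.12 ± 0.096, adjusted p 7.29e-29). The rise was smaller in MOPS by 1.65 ± 0.11 on the log2 scale (adjusted p 2.56e-13). All 5 Clcf1 calls held in each processing alternative run. Of the 6 B cell markers, 4 were higher in MOPS untreated and all 6 with LPS, against 24.3% and 26.9% of all genes. Their summed level, given above, was lower with LPS in both media. Their part in the Clcf1 result was not tested. Its coordinates overlap a microRNA gene on the other strand, Gm26115, whose counts were 1.97% of those of Clcf1.

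Ligand proportions within a library need no scaling between libraries. With LPS, Il6 counts were 0.343 ± 0.0331 of Lif counts in MOPS and 0.598 ± 0.0459 in HEPES. Osm counts were 0.461 ± 0.0178 of Lif counts in MOPS and 0.546 ± 0.0277 in HEPES. Clcf1 counts were 0.159 ± 0.00239 of Il6 counts in MOPS and 0.0498 ± 0.00304 in HEPES. None of these ratios overlapped between media, and the two-sided exact permutation test gave 0.1 for each, the smallest p that 3 against 3 libraries allow. Of the counts of the 4 ligands together, Lif took 53.0 to 55.3% in MOPS and 44.8 to 47.8% in HEPES, and Il6 took 17.0 to 19.8% and 26.3 to 28.8%. The 4 ligands made up 0.00336 to 0.00471% of all counts without LPS, 0.234 to 0.285% in MOPS with LPS and 0.312 to 0.346% in HEPES with LPS.

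Compared per kb of gene length with LPS, Lif, Osm and Il6 stood at 371, 327 and 226 CPM per kb in MOPS and at 433, 452 and 464 CPM per kb in HEPES. Clcf1 was far lower, at 23.4 and 15.1 CPM per kb. By this measure Lif, Osm and Il6 ranked 133rd, 150th and 229th among all tested genes in MOPS, and 121st, 112th and 107th in HEPES. By the means, Lif led the ligands in MOPS (371 ± 52 against 327 ± 43 for Osm) and Il6 in HEPES (464 ± 45 against 452 ± 28 for Osm). The ranges of mean ± SD overlapped in both, but such ranges ignore that the genes were read in the same libraries. Within each MOPS library given LPS, Lif stood above Osm per kb. In HEPES with LPS, Il6 and Osm were nearly level, so that order is not firm. Of the receptor genes, Il6st stood at 11.4 and 13.6 CPM per kb, Il6ra at 5.20 and 6.92, and Osmr at 0.0375 and 0.217.

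**Figure D2:**
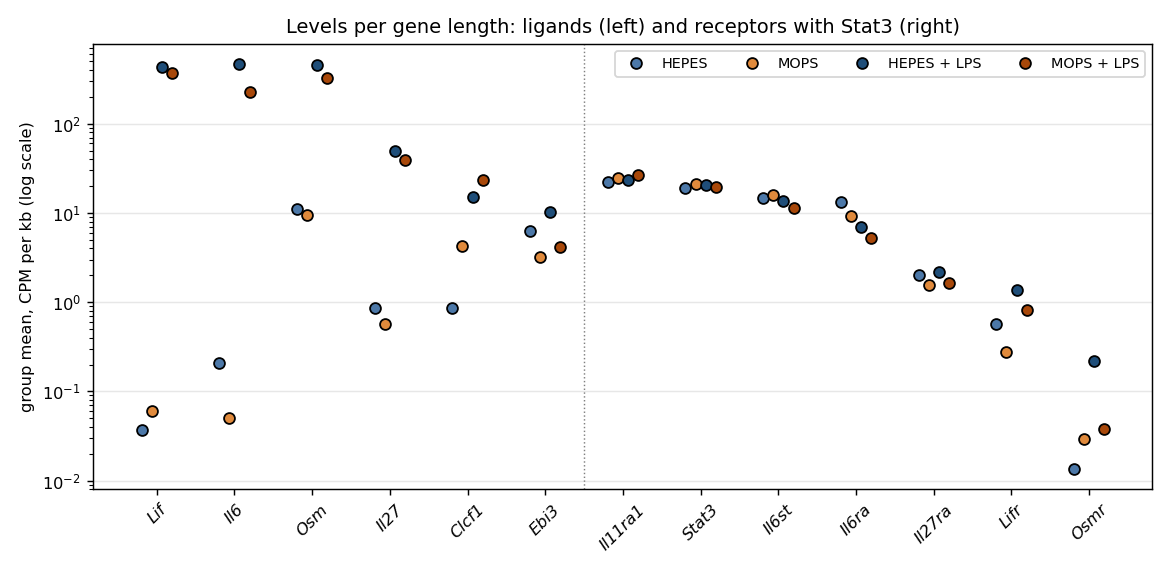
Mean level per kb of gene length (CPM per kb, log axis) of the ligands (left) and of the receptors and Stat3 (right) in the 4 groups; each point is a group mean of 3 libraries. With LPS, Lif, Osm and Il6 lie at 226 to 464 CPM per kb and the receptor chain Il6ra at 5.20 to 6.92.

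Without LPS, 4 of the 8 genes differed between media (Clcf1, Il6st and Stat3 higher in MOPS, Il6ra lower), against 49.7% of all genes (24.3% higher, 25.4% lower). That count lay at the background. With LPS, 6 of 8 differed (Clcf1 higher in MOPS, Il6, Osm, Il6ra, Il6st and Osmr lower), against 53.8% of all genes (26.9% higher, 26.9% lower). The median difference of the 8 genes was 0.11 without LPS and -0.33 with LPS, where the medians of all genes were -0.014 and 0.005. Without HEPES replicate 4 or 6, only 2 of the 8 genes differed when untreated, Clcf1 and Il6ra.

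**Figure D3:**
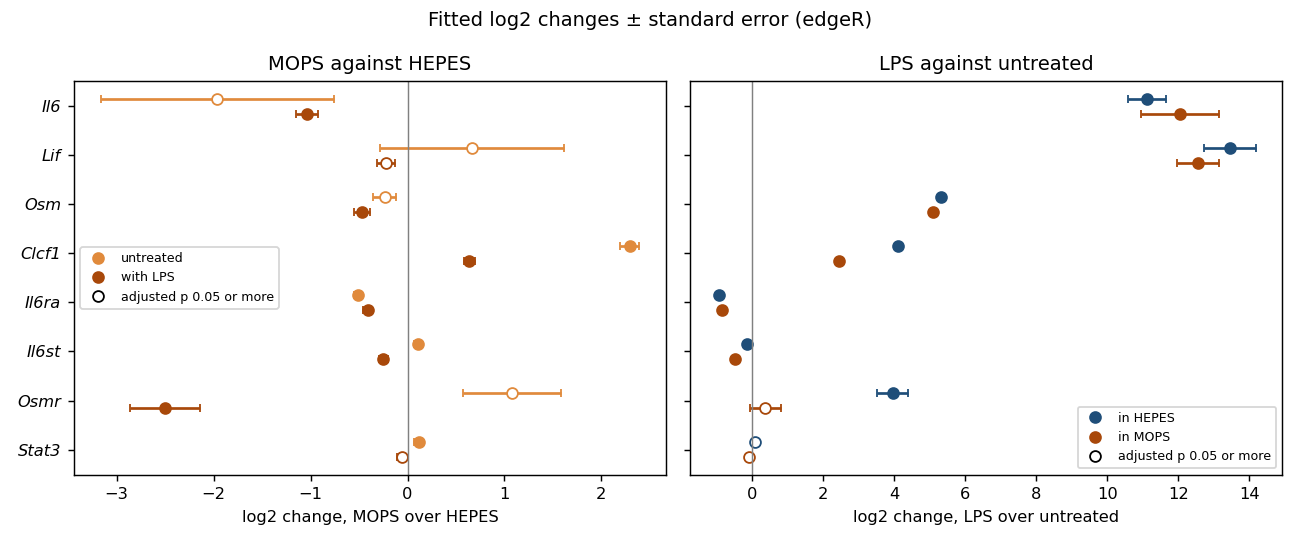
Changes of the 8 genes on the log2 scale, with bars for SE; the left panel is MOPS over HEPES without and with LPS, the right panel LPS over untreated in HEPES and in MOPS, and open symbols mark an adjusted p of 0.05 or more. Clcf1 lies on the higher side in MOPS at 2.29 and 0.64, and Osmr with LPS lies on the lower side at -2.50.

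Il6ra (ENSMUSG00000027947, chromosome 3, 89864059 to 89913196, minus strand), the ligand-binding chain for interleukin-6, was lower in MOPS and lower with LPS. Untreated it stood at 81.0, 80.9 and 78.7 CPM in MOPS and 113, 117 and 112 CPM in HEPES. With LPS it stood at 45.8, 42.4 and 46.7 CPM in MOPS and 59.5, 58.0 and 62.0 CPM in HEPES. No neighbouring groups overlapped in the order HEPES, MOPS, HEPES with LPS, MOPS with LPS. The levels were 1.42-fold lower in MOPS untreated (-0.51 ± 0.043, edgeR adjusted p 2.02e-11) and 1.33-fold lower with LPS (-0.41 ± 0.049, adjusted p 2.1e-08). LPS lowered Il6ra 1.78-fold in MOPS (-0.84 ± 0.047, adjusted p 3.07e-16) and 1.91-fold in HEPES (-0.93 ± 0.045, adjusted p 3.79e-18). The LPS changes differed by 0.10 ± 0.066, which did not pass the test (adjusted p 0.255), though it did under scaling by totals alone (0.17, adjusted p 0.0371).

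Il6st (ENSMUSG00000021756, chromosome 13, 112464070 to 112510086, plus strand), the gp130 chain shared by the family, moved less. Untreated it stood at 171, 178 and 183 CPM in MOPS and 159, 171 and 162 CPM in HEPES. With LPS it stood at 128, 126 and 126 CPM in MOPS and 158, 145 and 149 CPM in HEPES. The untreated groups overlapped, and the MOPS libraries given LPS were the lowest of the 12. LPS lowered Il6st in MOPS (-0.48 ± 0.042, edgeR adjusted p 1.35e-11) and less in HEPES (-0.12 ± 0.042, adjusted p 0.00974), a difference of -0.36 ± 0.06 (adjusted p 1.28e-05). The fall in HEPES was lost under DESeq2 (adjusted p 0.081), under DESeq2's size factors in edgeR (adjusted p 0.0837), in a fit of the HEPES groups alone (adjusted p 0.0947), and without any one of HEPES replicate 5, MOPS with LPS replicates 7 and 8, or HEPES with LPS replicates 11 and 12. With LPS, Il6st was lower in MOPS (-0.25 ± 0.043, adjusted p 1.17e-05), and untreated it was slightly higher (0.11 ± 0.041, adjusted p 0.0259), a call lost with no filter on low counts (adjusted p 0.0605) and without MOPS replicate 2 or 3 or HEPES replicate 4 or 6.

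The within-library ratio of Il6ra to Il6st counts combined both. It was 0.453 ± 0.0227 in MOPS and 0.696 ± 0.0155 in HEPES untreated, and 0.354 ± 0.0170 and 0.397 ± 0.0199 with LPS. The ratios did not overlap between media in either state (two-sided exact permutation p 0.1, the smallest possible here).

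Osmr (ENSMUSG00000022146, chromosome 15, 6813577 to 6874969, minus strand), the OSM-specific partner of gp130, was low, and its response to LPS depended on the medium. Its libraries held 10, 8 and 10 counts in MOPS, 6, 5 and 3 in HEPES, 6, 13 and 8 in MOPS with LPS, and 57, 50 and 38 in HEPES with LPS. HEPES with LPS stood above all other groups, at 3.10, 2.66 and 2.11 CPM, and no other library passed 0.615 CPM. The MOPS groups with and without LPS overlapped. LPS raised Osmr 15.6-fold in HEPES (3.96 ± 0.44, edgeR adjusted p 2.32e-11), the 260th largest rise. In MOPS its change missed the threshold (0.38 ± 0.43, adjusted p 0.441). The difference between the LPS changes was -3.58 ± 0.62 (adjusted p 1.18e-05), the 13th lowest of 14506 genes. With LPS the level was 5.67-fold lower in MOPS (-2.50 ± 0.36, adjusted p 1.09e-07), and untreated the difference was 1.08 ± 0.51 (adjusted p 0.0647). The summed mesothelial, stromal and endothelial markers, cells in which Osmr is known to be abundant, were 12.3 to 15 CPM in MOPS with LPS and 12 to 13.2 CPM in HEPES with LPS. Within that list the endothelial marker Cdh5, like Osmr, was highest in LPS-treated HEPES cultures, with a mean of 1.09 CPM against 0.287 in LPS-treated MOPS and, untreated, 0.174 for HEPES and 0.0621 for MOPS. Cdh5 rose with LPS in HEPES (2.60 ± 0.47, adjusted p 2.58e-06) and in MOPS (2.11 ± 0.77, adjusted p 0.00665), and was lower in MOPS with LPS (-1.89 ± 0.45, adjusted p 0.00034). The other endothelial marker, Pecam1, had its lowest mean in HEPES with LPS, at 1.26 CPM against 1.88 CPM in MOPS with LPS (0.55 ± 0.31, adjusted p 0.137). Of the 7 genes of the list with enough counts, 6 did not differ between media with LPS beyond the threshold, where 53.8% of all genes did. These 7 genes had means of at most 2.98 CPM in the LPS-treated groups, so a missed threshold says little. The part of such cells in the Osmr result was not tested.

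Stat3 (ENSMUSG00000004040, chromosome 11, 100885098 to 100939540, minus strand), the main transcription factor downstream of gp130, had nearly level mRNA. It stood at 206, 194 and 195 CPM in MOPS, 182, 194 and 174 in HEPES, 192, 184 and 184 in MOPS with LPS and 208, 188 and 188 in HEPES with LPS. Groups next to each other in mean level all overlapped. The untreated MOPS libraries did not overlap untreated HEPES or MOPS with LPS, though the nearest MOPS and HEPES libraries both round to 194 CPM. Untreated, Stat3 was slightly higher in MOPS (0.11 ± 0.044, edgeR adjusted p 0.0316), a call lost without MOPS replicate 1 or HEPES replicate 4 or 6. Its LPS changes of -0.09 ± 0.045 in MOPS (adjusted p 0.0827, called in 5 of 18 settings and at -0.60 under totals alone) and 0.09 ± 0.045 in HEPES (adjusted p 0.0767, turning to -0.50 under scaling by totals alone, but 0.12 with an adjusted p of 0.0411 in DESeq2) missed the threshold, as did the difference between media with LPS (-0.06 ± 0.045, adjusted p 0.274), although the last was called when any of 3 LPS-treated libraries was left out, MOPS replicate 7 (-0.12) or HEPES replicates 11 (-0.12) and 12 (-0.13), with adjusted p of 0.0375, 0.0428 and 0.0312. The difference between the LPS changes was -0.17 ± 0.063 (adjusted p 0.0278), a call lost under scaling by totals alone, with no filter on low counts, and without MOPS replicate 1, HEPES replicate 4 or 6 or MOPS with LPS replicate 9. Stat3 overlaps Stat5a on the opposite strand, whose counts were 19.5% of those of Stat3, and the strand setting of the counting is not given in the sources used here, so reads of the pair cannot be told apart where they overlap.

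The LPS change differed between media in 4 of the 8 genes (Clcf1, Il6st, Osmr and Stat3), near the 39.4% of all genes called. Each of the 4 changes was lower in MOPS, against 17.6% of all genes in that direction and 21.9% in the other. Scaling by totals alone gave 1 higher and 3 lower. The median of the difference was -0.30 for the 8 genes and 0.06 for all genes.

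**Figure D4:**
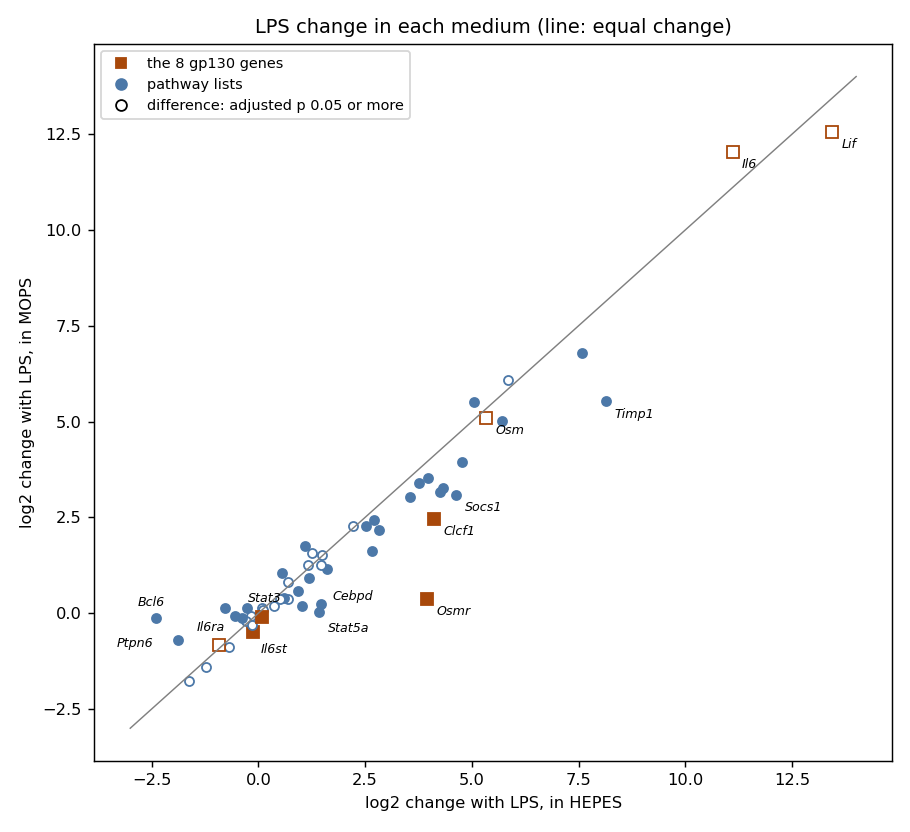
Log2 LPS change in HEPES (horizontal) against that in MOPS (vertical); squares are the 8 genes, circles the genes of the pathway lists, filled symbols have a difference between media with an adjusted p under 0.05, and the line marks equal change. Osmr (3.96 in HEPES, 0.38 in MOPS) and Clcf1 (4.12 and 2.47) lie below the line, and Il6 and Lif are open.

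Other gp130 ligands were few. Of 6 listed, 2 had enough counts, and both rose with LPS in both media: Il27, the p28 subunit of interleukin-27, by 6.07 ± 0.22 in MOPS and 5.85 ± 0.17 in HEPES, and its partner Ebi3 by 0.37 ± 0.15 and 0.68 ± 0.12, where scaling by totals alone turns the Ebi3 change in MOPS to -0.14. Of all genes, 34.1% rose with LPS in MOPS and 35.6% in HEPES. With LPS both ligands were lower in MOPS, Il27 by a log2 difference of -0.33 ± 0.063 and Ebi3 by -1.28 ± 0.14. Of all genes, 26.9% were lower there. Of 5 other receptor genes, 3 were tested. Lifr, the LIF receptor, rose from 2.95 to 8.69 CPM in MOPS and from 6.15 to 14.6 CPM in HEPES (1.57 ± 0.15 and 1.25 ± 0.13, edgeR adjusted p 7.34e-11 and 1.93e-10), and was lower in MOPS untreated (-1.07 ± 0.15) and with LPS (-0.75 ± 0.13). Il27ra was lower in MOPS in both states (-0.37 ± 0.12 and -0.40 ± 0.13), while Il11ra1 was slightly higher (0.15 ± 0.052 and 0.19 ± 0.053).

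Of 9 JAK-STAT signal transducers, 4 were higher and 3 lower with LPS in MOPS, and 4 were higher and 5 lower in HEPES; scaling by totals alone gave 1 and 7 in MOPS and 3 and 5 in HEPES. The shares of all genes were 34.1% up and 34.9% down for MOPS, and 35.6% and 41.2% for HEPES, so these counts lay near the background. Jak2, a kinase bound to gp130, rose from 78.1 to 753 CPM in MOPS and from 72.0 to 1437 CPM in HEPES (3.27 ± 0.045 and 4.32 ± 0.045), and Stat5b fell in both media (-1.39 ± 0.051 and -1.23 ± 0.053). With LPS, 5 of the 9 were higher in MOPS and 3 lower, against 26.9% of all genes in each direction. Among them Gab1, an adaptor that links gp130 to MAP kinase, was higher (1.41 ± 0.065) and Stat5a was lower (-1.31 ± 0.057). Untreated, 6 were higher and 1 was lower in MOPS, against 24.3% and 25.4% of all genes, Gab1 again among the higher (0.99 ± 0.059). The LPS change differed between media in 7 of the 9, higher in MOPS for 3 and lower for 4, against 39.4% of all genes in either direction.

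Inhibitors of the pathway responded in both directions. Of 8 tested, 5 rose and 3 fell with LPS in each medium (4 and 3 in HEPES under scaling by totals alone), where 69.0% of all genes changed in MOPS and 76.9% in HEPES. Cish, a STAT5-induced SOCS protein, rose by 6.80 ± 0.17 in MOPS and 7.58 ± 0.12 in HEPES and was lower in MOPS with LPS (-1.65 ± 0.048). Socs1 rose by 3.09 ± 0.15 and 4.62 ± 0.17. Socs3, the feedback inhibitor that binds gp130, was added after its values were seen: it went from 49.8 to 1621 CPM in MOPS and from 64.6 to 3356 CPM in HEPES, and was lower in MOPS with LPS (-1.05 ± 0.12). The phosphatase gene Ptpn6 fell less in MOPS (-0.69 ± 0.041) than in HEPES (-1.88 ± 0.042), a difference of 1.19 ± 0.058. Between media, 3 inhibitors were higher in MOPS and 3 lower after LPS, and 2 higher and 2 lower before it, against 53.8% and 49.7% of all genes in either direction.

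Genes known as STAT3 targets, many of which LPS also induces without gp130, were 14 in number. With LPS, 12 rose and 1 fell in MOPS, and 12 rose and 2 fell in HEPES, with medians of 1.90 and 2.68. Of all genes, 34.1% rose in MOPS and 35.6% in HEPES, with medians of -0.035 and -0.084. Under scaling by totals alone the counts in MOPS were 10 and 4. Pim1, a survival kinase, rose by 3.54 ± 0.048 in MOPS and 3.97 ± 0.048 in HEPES, and Junb by 3.04 ± 0.047 and 3.55 ± 0.047. With LPS, 10 of the 14 were lower in MOPS and 2 were higher, with a median of -0.43, against 26.9% of all genes in each direction and a median of 0.005. Cebpd (-1.46 ± 0.063) and Nfil3 (-0.88 ± 0.057) were among the lower. Bcl6, a repressor, was the opposite: LPS took it from 52.7 to 9.92 CPM in HEPES (-2.41 ± 0.087), and in MOPS it went from 51.9 to 47.2 CPM, a change that missed the threshold (-0.13 ± 0.065, edgeR adjusted p 0.0689). By the test of the difference, the LPS change was lower in MOPS for 11 of the 14 and higher for 1, Bcl6, against 17.6% and 21.9% of all genes. Untreated, 5 were higher and 2 lower in MOPS, against 24.3% and 25.4% of all genes, with Fos the highest at 1.52 ± 0.076.

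Of 12 genes that control Il6 transcription or the decay of its mRNA, 11 rose with LPS in each medium and none fell in MOPS, where Atf3 missed the threshold, while Atf3 fell in HEPES. Of all genes, 34.1% rose in MOPS and 35.6% in HEPES. Scaling by totals alone gave 8 higher and 3 lower in MOPS and 9 higher and 2 lower in HEPES. Nfkbiz, a nuclear co-activator of Il6, rose by 5.51 ± 0.042 in MOPS and 5.05 ± 0.040 in HEPES, and its level with LPS did not differ between media beyond the error (-0.05 ± 0.036, edgeR adjusted p 0.241). Nfkb1 (-0.53 ± 0.041) and Zc3h12a, which encodes the RNase Regnase-1 that cuts Il6 mRNA (-0.55 ± 0.044), were lower in MOPS with LPS. Zfp36, which encodes the ATTTA-binding decay factor tristetraprolin, was higher, with 402 CPM in the LPS-treated MOPS group against 225 CPM in HEPES (0.83 ± 0.043). In MOPS with LPS, 3 of the 12 exceeded HEPES and 5 were below it, against 26.9% of all genes each way. Untreated, 5 exceeded it and 4 were below, against 24.3% and 25.4%. Of 3 genes for shedding of receptors such as the interleukin-6 receptor, the protease gene Adam17 rose with LPS by 0.82 ± 0.040 in MOPS and 0.68 ± 0.039 in HEPES, and its partner Rhbdf2 by 2.27 ± 0.038 and 2.53 ± 0.038. The third, the protease gene Adam10, fell in HEPES (-0.16 ± 0.039) and was higher in MOPS untreated (0.26 ± 0.038) and with LPS (0.35 ± 0.040), where Adam17 was lower (-0.33 ± 0.039 and -0.19 ± 0.039).

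Genes with the most similar profile over the 12 libraries were found by Pearson correlation of log2 CPM among 12036 genes with a mean of at least 1 CPM. The points share libraries and an LPS shift common to many genes, so the values only describe. Il6 was nearest to Il1b (0.997), Tfe3 (0.997) and Itgal (0.996). Lif was nearest to Lrrfip1, Ell2 and Hivep2 (0.998 to 0.999), and Osm to Arl5b, Il1a and Nr4a3 (each 0.999). The nearest profiles to Clcf1 were those of Arrdc4, Jag1 and Axl (0.996 to 0.997), and those to Il6ra were Nkiras2, Phactr2 and Dusp3 (0.989 to 0.993). Il6st came nearest to Wrnip1, Fem1a and Dkc1 (0.961 to 0.968) and Osmr to Golt1b, Fubp1 and Lsm11 (0.972 to 0.975). Stat3 had no close profile, with Ctcf, Eya3 and Slc18a2 at 0.768 to 0.775.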

How the data were processed

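Libraries were made with the NEBNext Ultra RNA kit, per the labels' protocols. CASAVA 1.8, HISAT2 2.0.5, featureCounts 1.5.0-p3 and build mm10 are named in the submitters' processing notes, without roles. The deposited table holds raw counts per gene and library, per the file headers. Its other columns used here are the authors' log2 fold changes and adjusted p-values, whose LPS comparisons run untreated over LPS. The FPKM columns and the authors' group means were not used.

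Differences were tested with edgeR 4.0.16 in R 4.3.3 (limma 3.58.1 as its dependency). Genes with too few counts were removed by filterByExpr with a count minimum of 10, leaving 14506 of 54532. Libraries were scaled by TMM. A means model of the 4 groups was fitted to all 12 libraries with robust quasi-likelihood dispersion and 8 residual degrees of freedom. Each contrast, including the interaction (the HEPES LPS change subtracted from the MOPS one), was adjusted by Benjamini-Hochberg, with a threshold of 0.05 and no fold minimum. SE is the Wald error from the fitted quasi-likelihood variance, never below counting error, so it can differ from the error the test uses. Similarity used a prior count of 2. Ratios of counts within libraries were tested by exact permutation. The method was tested on simulated data. No 2 libraries were identical, and pairs within groups differed by more than counting error (chi-square per degree of freedom 2.79 to 7.1). DESeq2 1.42.0, other scalings, no filter, fits of only the compared groups and leaving out each library were alternatives, and DESeq2 on only the compared groups was chosen after seeing the data.

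Named genes were the 8 genes, up to 3 called genes of each of 7 pathway lists in each contrast by smallest p, listed genes with too few counts, and the 3 most similar profiles per gene; a few others are named for their level or role, and those outside the rule (Socs3, Castor1, Tbc1d10a and the markers) were chosen with their values known. The 8 genes and all lists were chosen with earlier results of these data known. The lists share Socs3, Cebpb and Cebpd. Some genes of the pathway are not reported here.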

Additional observations from a re-analysis of the deposited data

Results flagged for a closer look

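The LPS change differed between the media by the interaction test of edgeR for 4 of the 8 genes and for 30 of 48 further genes tested from the pathway lists (62.5%), against 39.4% of all genes. The 8 genes and the lists were chosen with earlier results of these data known, so these shares only describe. Each value is the log2 LPS change in HEPES subtracted from that in MOPS. Among the 8 genes the values were -1.65 for Clcf1, -0.36 for Il6st, -3.58 for Osmr and -0.17 for Stat3.

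Among signal transducers the LPS change was lower in MOPS for Jak1 (-0.20), Jak2 (-1.05), Stat5a (-1.39) and Ptpn11 (-0.35), and higher for Tyk2 (0.27), Grb2 (0.48) and Gab1 (0.42). Among inhibitors it was lower for Socs1 (-1.53), Socs3 (-0.68) and Cish (-0.78), and higher for Ptpn1 (0.50) and Ptpn6 (1.19).

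Among STAT3 targets, besides Socs3 given above, it was lower for Bcl3 (-0.28), Junb (-0.51), Il4ra (-1.04), Pim1 (-0.43), Cebpb (-0.65), Cebpd (-1.23), Myc (-0.46), Timp1 (-2.61), Il1rn (-1.08) and Nfil3 (-0.83), and higher for Bcl6 (2.28). Among genes that control Il6, besides Cebpb and Cebpd just given, it was lower for Nfkb1 (-0.36), Zc3h12a (-0.81) and Rc3h1 (-0.27), and higher for Nfkbiz (0.46), Zfp36 (0.66) and Atf3 (0.90). For Rhbdf2, a partner of the shedding protease, it was -0.26. For Stat3 the limits given with its levels apply, and for Stat5a the overlap with Stat3 given there. For the smallest of the other values, the difference under alternative settings is not given here.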

How the results depend on the processing

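Of 701 values of the 8 genes under alternative settings (40 results), 650 kept their side of the threshold, 24 lost a call, 26 gained one and 1 turned. A change of direction counted as turned only where the main or the alternative fit called the value. Uncalled values could change sign among the 650, as the Il6 interaction did (-0.194 to 1.395 over the settings). The calls for Clcf1, for Il6ra except the interaction, for the LPS rises of Il6, Lif and Osm, and for Osmr with LPS held in all settings run. Leaving out 1 library at a time, the number of the 8 genes called ran from 2 to 5 between untreated media, 6 to 8 between media with LPS, 6 to 7 for LPS in MOPS, 7 in HEPES and 3 to 5 for the interaction. Scaling by totals alone turned these LPS changes in MOPS: Ebi3 -0.144, Il11ra1 -0.378, Il27ra -0.421, Jak1 -0.119, Stat5a -0.480, Gab1 -0.374, Cebpd -0.266, Nfil3 -0.312, Arid5a -0.321, Rc3h2 -0.155 and Atf3 -0.389. In HEPES it turned Stat3 -0.497, Il11ra1 -0.493, Il27ra -0.468, Ptpn1 -0.035, Arid5a -0.217 and Rc3h2 -0.076. The split of all calls moved with it from 4945 higher and 5062 lower to 2084 and 9506 for LPS in MOPS, from 5168 and 5982 to 2502 and 9666 in HEPES, from 3904 and 3897 to 4885 and 2942 between media with LPS, and from 3173 and 2546 to 3891 and 1972 for the interaction. Few counts limit untreated Il6 and Lif and all of Osmr. No paired analysis was possible because the replicate numbers run from 1 to 12 and no 2 groups share one.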

Other observations

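Gp130-family genes with too few counts for a test were 4 ligands and 2 receptor chains. Il11, which signals through gp130 and its own receptor, had 2 counts in all MOPS libraries and 0 in all HEPES libraries. With LPS it had 6 counts in MOPS and 36 in HEPES, so the LPS-treated HEPES libraries held most of its counts, as they did for Osmr. Ctf1, Ctf2 and Cntf stood at means of at most 0.316 CPM in any group, and Cntfr and Il31ra at 0.0399 CPM or less.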
